A study of Mus musculus with 11 samples.

Results

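Genes of lipid uptake and of the lipid droplet were examined in regulatory T cells (Tregs). They were chosen by name from the deposited expression table: Cd36, Plin2, Dgat1 and Lipe. Of these 4 genes, 3 (Plin2, Dgat1 and Lipe) have a row among the 10992 genes of the table, and Cd36 was not analysed here. All 3 passed the filter, which kept the 10429 genes that reached 1 RPKM in 2 or more libraries. RPKM scales reads by gene length and by library size, so that levels can be compared between genes.

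The samples were live CD3+ CD4+ Foxp3+ cells sorted from visceral adipose tissue (VAT) or spleen of male mice aged 25 weeks, profiled by bulk RNA sequencing. All mice carried Foxp3-YFPcre, a Cre recombinase expressed where the Treg gene Foxp3 is expressed. The controls were Srebf2-WT/WT (called WT here) and the other mice were Srebf2-flox/flox (called KO here), so that Srebf2, which encodes the sterol-responsive transcription factor SREBP2, can be deleted in Foxp3-expressing cells. Each genotype had 3 VAT libraries and 2 spleen libraries analysed, and spleen KO replicate 1 was not analysed here. The labels do not say whether each library came from a separate mouse or from pooled mice, so that p-values measure only the spread between these libraries, which may be technical.

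A lipid droplet is a store of neutral lipid, triglycerides and sterol esters, wrapped in a single layer of phospholipid and coated with proteins. Fatty acids taken up by the cell, in part through the scavenger receptor CD36, are activated to acyl-CoA and built into triglyceride, and lipases release them again. Tregs of visceral fat depend on the nuclear receptor PPARγ, a sensor of fatty acids, and live in a tissue rich in lipid.

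The members have different roles in this cycle. Dgat1 encodes an enzyme of the endoplasmic reticulum that joins an acyl-CoA to diacylglycerol, the last step of triglyceride synthesis. Plin2 encodes perilipin 2, a coat protein of droplets in many cell types that shields the stored lipid. Lipe encodes hormone-sensitive lipase, which cleaves diacylglycerol and cholesteryl esters. All are protein-coding genes on the minus strand in GRCm38.p6 (mm10): Plin2 (Entrez 11520) at chromosome 4, 86626910 to 86670217, Dgat1 (Entrez 13350) at chromosome 15, 76502012 to 76512021, and Lipe (Entrez 16890) at chromosome 7, 25379527 to 25398486. In GENCODE, Lipe overlaps the antisense gene 4732471J01Rik. The library kit does not mark the strand, so that reads of these genes cannot be told apart and the Lipe level is uncertain to that extent. Plin2 and Dgat1 overlap no annotated gene, although Hsf1 ends 102 bases from Dgat1.

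The promoters of Plin2 and Lipe are shown so that a member with a large tissue difference can be set beside one that did not pass the test. RefSeq sequences of the 250 bases before each start in the promoter set were searched on both strands. The letters sought were TCACNCCAC (a sterol regulatory element) and the PPAR-RXR direct repeat (a pair of AGGTCA with N between them). Also sought were AGGTCA alone (a single repeat), CACGTG (an E-box) and ACGTG (a hypoxia core, which lies within CACGTG). The starts are not the outer ends of the gene spans given above. The Plin2 stretch lies partly, and the Lipe stretches wholly, inside those spans. The Plin2 promoter is chr4:86670060-86670309 and the first of 2 Lipe promoters is chr7:25395988-25396237, both on the minus strand and printed 5′ to 3′, with matches in capitals.

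Plin2 promoter: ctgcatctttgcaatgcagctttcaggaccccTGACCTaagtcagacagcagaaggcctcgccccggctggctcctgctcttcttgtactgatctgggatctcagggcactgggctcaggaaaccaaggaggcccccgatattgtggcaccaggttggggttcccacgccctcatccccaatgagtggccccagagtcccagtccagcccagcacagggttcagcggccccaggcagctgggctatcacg

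Lipe promoter 1: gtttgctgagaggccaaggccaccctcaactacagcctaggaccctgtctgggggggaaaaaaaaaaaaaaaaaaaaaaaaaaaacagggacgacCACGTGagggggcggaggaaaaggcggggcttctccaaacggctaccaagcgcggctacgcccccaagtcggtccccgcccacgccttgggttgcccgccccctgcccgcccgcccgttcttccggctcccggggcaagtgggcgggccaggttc

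In Plin2 the capitals mark the single repeat, read on the opposite strand, 218 to 213 bases before the start. In Lipe promoter 1 they mark an E-box, with the hypoxia core inside it, 155 to 150 bases before the start. The second Lipe promoter, at chr7:25390113-25390362, held none of the 5 motifs. Among 32851 promoters of the same length, 14.02% held the single repeat, 6.02% the E-box, 16.6% the hypoxia core, 1.05% the sterol regulatory element and 0.033% the direct repeat. A look added after the first search found an E-box lying across this start of Plin2, in the 30 bases at chr4:86670045-86670074, again on the minus strand.

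Plin2 start: agctgggctatCACGTGgctcggaggcttg

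The capitals mark CACGTG, which begins 4 bases before the start. In a window of 300 bases, up to 50 bases past the start, 7.15% of promoters held it. These matches describe letters only.

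Across the libraries the summed RPKM ran from 185319 to 210779, and 9551 to 9774 genes reached an RPKM of 1. Read depth is unknown. Spleen WT replicate 2 stood apart by its 43 values at 0, against 4 to 18 in the others, and by the highest summed RPKM. Srebf2 was at 15.6 to 30.5 RPKM in VAT WT and 0.263 to 1.23 in VAT KO, and at 10.5 and 23.2 in spleen WT against 2.59 and 1.59 in spleen KO. Foxp3 stood between 13.3 and 16.4 RPKM in VAT and between 6.97 and 8.87 in spleen. The 9 T cell and Treg markers summed to 1077 to 1360 RPKM over all libraries.

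Plin2 was high in Tregs of fat and low in Tregs of spleen. Its RPKM was 134, 148 and 140 in the VAT WT libraries and 105, 105 and 125 in VAT KO. It was 5.29 and 5.56 in spleen WT and 6.56 and 9.11 in spleen KO. Every VAT library lay above every spleen library, an order that 18.1% of tested genes had in WT and 20.0% in KO. No group of Plin2 values overlapped another, and the share of genes with either order over all libraries was not counted. By mean the order was VAT WT (141 ± 6.98, SD, n = 3), VAT KO (111 ± 11.7, n = 3), spleen KO (7.84 ± 1.80, n = 2) and spleen WT (5.43 ± 0.193, n = 2). Within a library, Plin2 ranked 169 to 202 of 10992 genes in VAT WT and 218 to 262 in VAT KO, while in spleen it ranked between 4618 and 6332.

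Dgat1 had the same split by tissue. Its RPKM was 82.3, 72.3 and 109 in VAT WT and 86.9, 76.3 and 72.9 in VAT KO. It was 9.55 and 8.52 in spleen WT and 8.37 and 9.66 in spleen KO. The VAT libraries lay above the spleen libraries without overlap, while WT and KO overlapped in both tissues. The widest spread was in VAT WT (87.8 ± 18.8, n = 3), where replicate 3 was the highest library. The means were 78.7 ± 7.28 in VAT KO (n = 3), 9.03 ± 0.724 in spleen WT (n = 2) and 9.01 ± 0.909 in spleen KO (n = 2).

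Lipe was low everywhere. Its RPKM was 1.63, 2.75 and 2.05 in VAT WT and 2.96, 2.57 and 2.54 in VAT KO. It was 2.95 and 3.36 in spleen WT and 3.40 and 2.26 in spleen KO. The groups ran together, apart from VAT WT, whose libraries all lay below those of spleen WT. From highest to lowest mean the order was spleen WT (3.15 ± 0.293, n = 2), spleen KO (2.83 ± 0.803, n = 2), VAT KO (2.69 ± 0.235, n = 3) and VAT WT (2.14 ± 0.562, n = 3). Neighbours in that order overlapped, and Lipe ranked between 7572 and 9048 in every library.

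**Figure D1:**
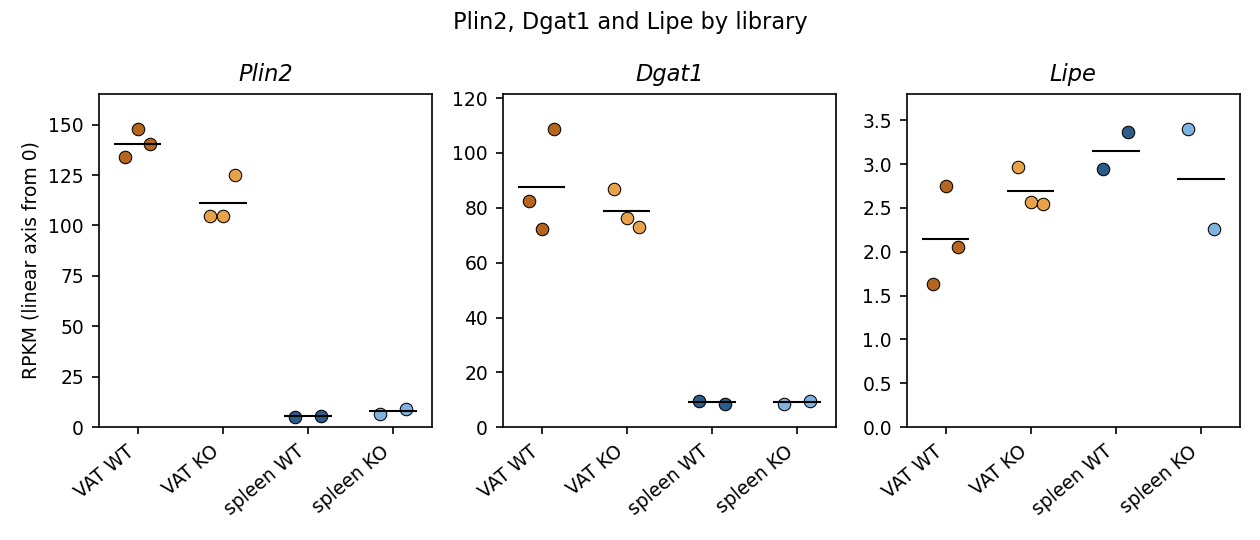
RPKM of Plin2, Dgat1 and Lipe in each library on linear axes from 0, by tissue and genotype (points are libraries and lines are group means). Plin2 and Dgat1 points of VAT lie above all spleen points, while Lipe points lie between 1.63 and 3.40 RPKM in all groups.

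The relation between the members also differed by tissue. Plin2 stood above Dgat1 in all 6 VAT libraries, at 1.20 to 2.04 times its RPKM, and below it in all 4 spleen libraries, at 0.554 to 0.944 times. Over the 10 libraries the log2 levels of Plin2 and Dgat1 had a Pearson r of 0.99, those of Plin2 and Lipe -0.56 and those of Dgat1 and Lipe -0.55. The points share libraries and the tissue split, so that these are descriptions.

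The comparison of VAT with spleen in WT asked how the tissue differed with Srebf2 intact. Plin2 and Dgat1 were higher in VAT, and Lipe did not pass the test. In limma, on log2(RPKM + 1), Plin2 was higher by 4.46 ± 0.16 (SE; 95% interval 4.12 to 4.81; adjusted p = 1.86e-09) and its mean RPKM was 25.9 times that of spleen. Dgat1 was higher by 3.13 ± 0.18 (2.74 to 3.52; adjusted p = 1.04e-07), with a ratio of means of 9.72. Thus 2 of 3 members were called higher, where 10.7% of all tested genes were higher, 15.4% lower and 26.1% called in either direction. By p, Plin2 ranked 7 and Dgat1 ranked 41 of 10429. In a bulk sample, fewer cells of a type and less RNA per cell cannot be told apart.

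Lipe differed by -0.42 ± 0.23 (limma, 95% interval -0.93 to 0.09, adjusted p = 0.209). Its VAT WT libraries lay below spleen WT without overlap, which 31.0% of tested genes also did. The 2-sided exact permutation test over the 5 libraries gave p = 0.1 for Plin2 and Dgat1, the smallest the 10 splits allow, and 0.2 for Lipe. Without spleen WT replicate 2 the differences were 4.43 for Plin2, 3.20 for Dgat1 and -0.49 for Lipe.

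The tissue difference was also present in KO. Plin2 was higher in VAT by 3.68 ± 0.16 (3.33 to 4.02; limma adjusted p = 1.39e-08) and Dgat1 by 2.99 ± 0.18 (2.60 to 3.38; limma adjusted p = 1.87e-07). The ratios of mean RPKM were 14.2 and 8.73. Lipe differed by -0.04 ± 0.23 (-0.55 to 0.47; limma adjusted p = 0.939) and its groups overlapped. In this comparison 7.65% of tested genes were called higher. Averaged over genotype, Plin2 was higher by 4.07 ± 0.11 (limma adjusted p = 6.17e-11) and Dgat1 by 3.06 ± 0.13 (limma adjusted p = 2.07e-09), where 13.9% of tested genes were called higher, and Lipe differed by -0.23 ± 0.17 (limma adjusted p = 0.311). The exact permutation test within genotype gave p = 0.01 for Plin2 and Dgat1, the smallest its 100 splits allow, and 0.17 for Lipe.

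The median of all tested genes was -0.12 in WT and -0.09 in KO on the same scale. Scaling by median ratios moved the differences of single genes by a median of 0.14 in WT and 0.08 in KO. That scaling raised the share of calls that were higher from 41.0% to 57.5% in WT. Plin2 was then higher by 4.60 and Dgat1 by 3.27 in WT.

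**Figure D2:**
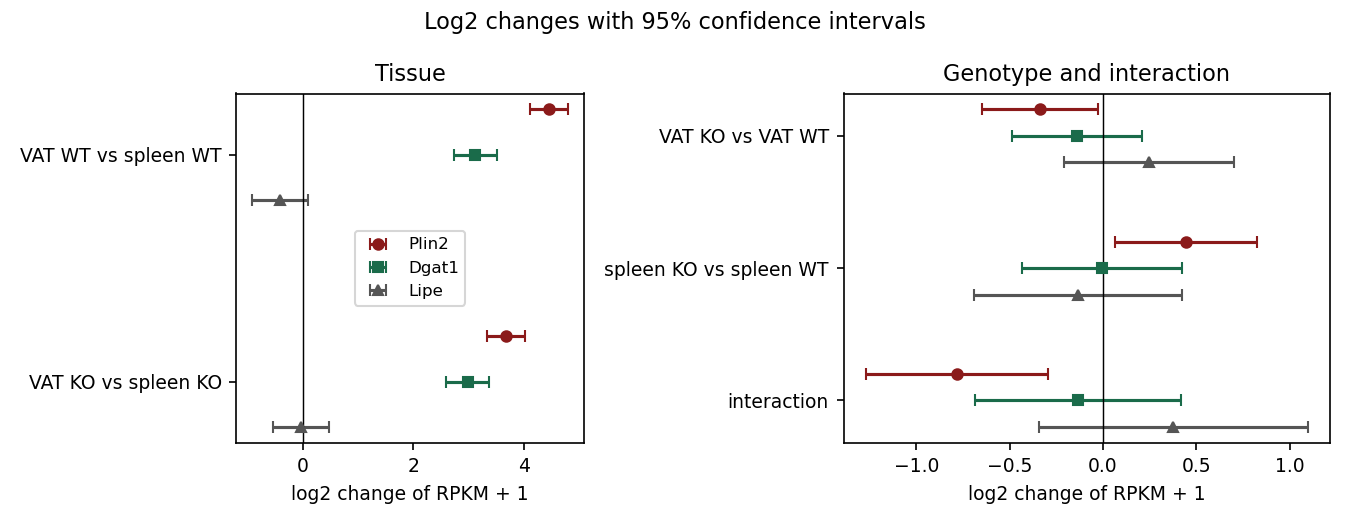
Log2 change of RPKM + 1 for Plin2, Dgat1 and Lipe in each comparison, with 95% intervals from limma. The intervals of Plin2 and Dgat1 lie far above 0 for VAT against spleen, whereas the Lipe interval reaches 0 in all 5 comparisons shown.

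Marker genes gave the setting of the tissue difference. The 10 adipose tissue Treg markers summed to 2534 to 2716 RPKM in VAT WT and 2001 to 2116 in VAT KO, against 187 to 272 in spleen, and 9 of 10 were called higher in VAT of both genotypes. Pparg belongs to this list and to the regulators below. The macrophage, monocyte and dendritic cell list had summed levels of 12.8 to 15.7 RPKM in VAT WT and 20.3 to 46.2 in VAT KO, against 180 to 243 in the spleen libraries, over the 5 of its 18 genes that have a row, mostly Ctss. B cell markers summed to 19.9 to 95.3 in VAT and 31.5 to 46.6 in spleen (6 of 9), and Pecam1, the 1 of 8 endothelial markers with a row, stood at 4.39 to 7.37 in VAT WT, 8.80 to 11.8 in VAT KO and 15.9 to 34.9 in spleen. The CD8 T, NK and gamma-delta T cell markers summed to 4.93 to 18.4 in VAT and 11.1 to 20.0 in spleen (2 of 8). Of 12 adipocyte, 6 platelet and 8 stromal markers, 0 had a row among the genes analysed. The part of other cells in the Plin2 and Dgat1 levels was not tested.

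Another list moved with the same tissue split. Immediate early and dissociation genes, a list added after the data were seen, had summed levels of 6790 to 8542 RPKM in the VAT libraries and of 705 to 872 in the spleen libraries. In VAT WT against spleen WT, 17 of 18 were called higher (10.7% of all tested genes were), with a median of 4.77. The other, Egr2, was called lower, at 4.49 ± 2.25 RPKM in VAT WT and 16.8 ± 6.41 in spleen WT. In KO, 17 of 18 were called higher (7.65% of all tested genes were), with a median of 4.115. Of the 6 genes whose levels tracked Plin2 or Dgat1 most closely, 4 belong to that list: Btg2 for Plin2, and Nfkbiz, Rgs2 and Ppp1r15a, which are all 3 of those for Dgat1. The list came after the data and most of its genes share the tissue split, so that count is a description only. The hypoxia-inducible list, also added later, had 4 of 16 called higher and 1 lower in WT, with a median of 0.02. The part of cell handling in the Plin2 and Dgat1 difference was not tested.

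The genes most like each member were found by Pearson r of log2(RPKM + 1) over the 10 libraries. For Plin2 they were Ltb4r1 (r = 0.998), Ccr1 (0.998) and Btg2 (0.998). For Dgat1 they were Nfkbiz (0.996), Rgs2 (0.996) and Ppp1r15a (0.996). For Lipe they were Ctnnbl1 (0.90), Noc3l (0.89) and Otub1 (0.88). All these points share the libraries and the tissue split, so that r is given as a description.

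The deletion of Srebf2 was compared with WT within each tissue. No member was called in either. In VAT, Plin2 was lower in KO by 0.34 ± 0.14 on the log2 scale (limma difference -0.34, 95% interval -0.65 to -0.03, adjusted p = 0.608), with a mean RPKM 0.792 times that of WT. All 3 KO libraries lay below all 3 WT libraries, as did 6.16% of tested genes, and the exact permutation test gave p = 0.1, the smallest that 20 splits allow. Of all tested genes, 0.422% were called in VAT, and 0.115% were called lower. Dgat1 differed by -0.14 ± 0.16 (-0.49 to 0.21; limma adjusted p = 0.981) and Lipe by 0.245 ± 0.21 (-0.21 to 0.70; limma adjusted p = 0.959), both with overlapping groups. The Lipe value was 0.125 without VAT WT replicate 1 and 0.38 without VAT WT replicate 2.

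Marker lists were also looked at between the VAT genotypes in which Plin2 was compared. Of the macrophage, monocyte and dendritic cell genes, 3 were tested and 1 was called: Ctss, which encodes the lysosomal protease cathepsin S, rose in KO by 1.31 ± 0.245 (limma adjusted p = 0.0449), from 12.9 ± 1.07 to 35.3 ± 13.6 RPKM. Pecam1 differed by 0.80 (limma adjusted p = 0.435), at 4.39 to 7.37 RPKM in WT and 8.80 to 11.8 in KO. The adipose tissue Treg markers summed to 2534 to 2716 RPKM in WT and 2001 to 2116 in KO. The immediate early list summed to 7641 to 8542 and 6790 to 7082. Both sums were lower in KO without overlap. Of single tested genes 6.16% had that order, and the share for sums of genes was not counted. The gene with the highest level was Klrg1 in the first sum and Junb in the second. Klrg1, the highest gene of the first list, was at 883 ± 66.9 RPKM in WT and 603 ± 73.7 in KO. In these lists 1 of 10 and 4 of 18 genes had a difference above 0, among the latter Hspa1a and Hspa1b. None of the genes of these 2 lists was called by genotype in limma. Their medians were -0.31 and -0.265, beside 0.02 over all tested genes. The B cell markers had a median of -0.644, with 0 of 5 above 0 and 0 called. The part of these genes in the Plin2 difference was not tested.

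In spleen, Plin2 was at a higher level in both KO libraries than in both WT libraries, by 0.45 ± 0.17 (limma, 95% interval 0.07 to 0.82, adjusted p = 0.594), a ratio of means of 1.44. That order was shared by 15.0% of tested genes, and the exact test cannot give less than its p of 0.333 with 6 splits. Without spleen KO replicate 3 the difference was 0.235, and without replicate 2 it was 0.66. Replicate 3 also had Hspa1b, of the immediate early list, at 82.3 RPKM, against 5.57 in KO replicate 2 and 0.156 and 1.23 in WT. Of that list, 7 of 18 genes had a difference above 0 in spleen. The part of this in the Plin2 difference was not tested. Dgat1 differed by -0.004 ± 0.20 (-0.43 to 0.42; limma adjusted p = 0.996) and Lipe by -0.13 ± 0.26 (-0.69 to 0.42; limma adjusted p = 0.874). In limma 0 genes (0%) were called in spleen, and 873 had an unadjusted p under 0.05.

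Plin2 thus lay lower in KO than WT in VAT and higher in spleen. The difference between these differences, the interaction, was -0.78 ± 0.23 (limma, 95% interval -1.27 to -0.29, adjusted p = 0.558), ranking 79 by p. The exact permutation test within tissue gave p = 0.0167, the smallest its 120 splits allow, and was 1 of 3 such tests. Opposite orders without overlap in the 2 tissues give that p by themselves. As genotype is shuffled within tissue, it is not a test of the interaction alone. Both orders without overlap were found in 88 of 10429 tested genes (0.844%). For Dgat1 the interaction was -0.135 ± 0.25 (limma adjusted p = 0.915, exact p = 0.633) and for Lipe 0.38 ± 0.33 (limma adjusted p = 0.831, exact p = 0.217). The Lipe interaction was 0.16 without spleen KO replicate 3 and 0.59 without spleen KO replicate 2. In limma 0 genes (0%) were called for the interaction, with 738 at an unadjusted p under 0.05. Averaged over tissue, the members differed by -0.07 to 0.06 between genotypes and none was called, against 0.0767% of tested genes.

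**Figure D3:**
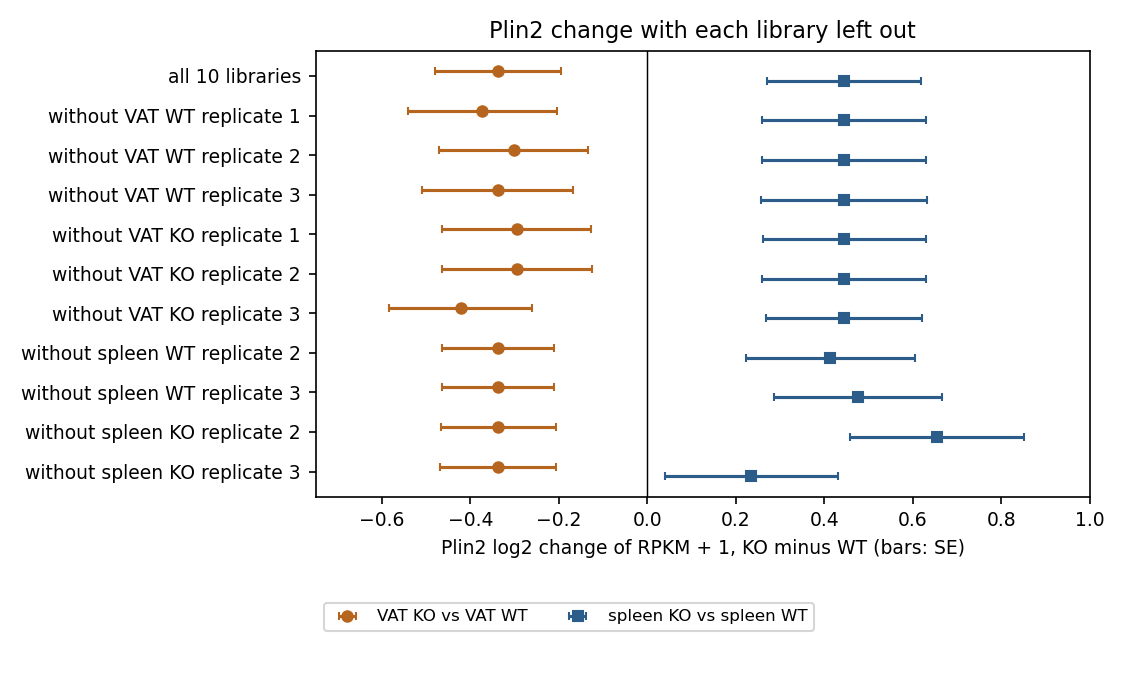
Plin2 log2 change of RPKM + 1 in KO against WT, with SE, for VAT (circles) and spleen (squares), over all 10 libraries and with each library left out. The VAT value stays between -0.42 and -0.295 and the spleen value between 0.235 and 0.66.

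Several genes act beside the members, and 3 were picked after their values were seen as the nearest in function: Plin3, another droplet coat protein, Dgat2, which catalyses the same reaction as Dgat1, and Pnpla2, the lipase that acts before Lipe. Plin3 was at 17.7 ± 0.417 RPKM in VAT WT and 17.1 ± 4.53 in spleen WT (difference 0.07, limma adjusted p = 0.802). Dgat2 was at 2.62 ± 2.21 and 1.84 ± 0.657 (0.20, limma adjusted p = 0.762). Pnpla2 was at 12.0 ± 0.998 and 13.9 ± 3.44 (-0.18, limma adjusted p = 0.561). These 3 did not pass the test between tissues. Plin2 was 5.32 to 8.38 times Plin3 in VAT and 0.261 to 0.599 times in spleen. Dgat1 exceeded Dgat2 in every library, by 18.1 to 79.4 times in VAT and 3.70 to 6.96 times in spleen, and Lipe was 0.126 to 0.257 times Pnpla2 throughout.

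Hilpda, a droplet protein that inhibits the lipase encoded by Pnpla2, had a tissue split like that of Plin2. In VAT it was at 259 ± 43.3 RPKM in WT and 211 ± 35.8 in KO, and in spleen at 10.8 ± 0.0707 and 13.2 ± 0.358. It rose in VAT against spleen by 4.45 in WT (limma adjusted p = 2.71e-09) and by 3.88 in KO (limma adjusted p = 1.55e-08), and was 1.48 to 2.20 times Plin2 in every library. Its genotype differences did not pass the test, at -0.30 in VAT (limma adjusted p = 0.779) and 0.27 in spleen (limma adjusted p = 0.684), and its interaction was -0.57 (limma adjusted p = 0.694). Pparg, which encodes PPARγ, was at 37.9 ± 3.99 RPKM in WT and 24.6 ± 1.76 in KO of VAT, and at 1.46 ± 0.486 and 0.799 ± 0.287 in those of spleen. It rose by 3.99 in VAT WT against spleen WT (limma adjusted p = 2.2e-08).

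**Figure D4:**
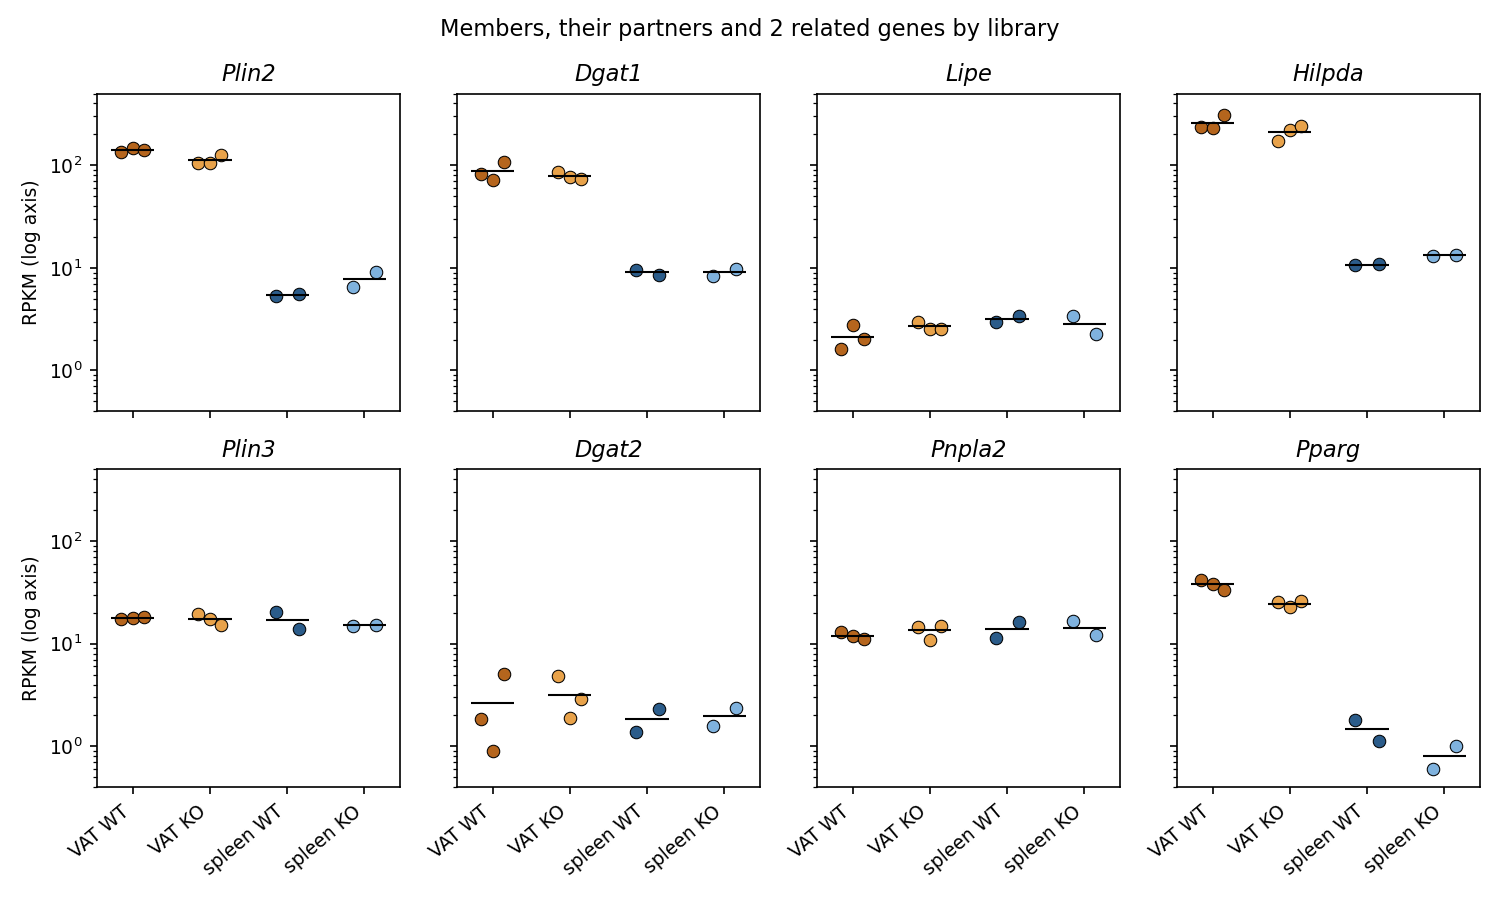
RPKM of the members, of Plin3, Dgat2 and Pnpla2, and of Hilpda and Pparg in each library on a log axis (points are libraries and lines are group means). Hilpda and Pparg split by tissue like Plin2, while the points of Plin3, Dgat2 and Pnpla2 overlap between VAT and spleen.

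Lists of the wider pathway were counted with the members left out. In VAT WT against spleen WT, where 10.7% of all tested genes were called higher and 15.4% lower with a median of -0.12, uptake and binding genes had 1 of 9 called higher, with a median of 0.24: Fabp5, a fatty acid binding protein, by 0.93 (limma adjusted p = 0.00811). Of the acyl-CoA synthetases, 2 of 8 were higher and 1 lower (median -0.11): Acsbg1 by 1.07 and Acss2 by 0.89, and Acsf2 at -1.11. Glycerolipid synthesis had 2 of 16 higher and 2 lower (median 0.32), with Agpat4 higher by 1.87, Gpat3 by 1.30 and Agpat3 at -1.12. Droplet proteins had 2 of 12 higher and 0 lower (median 0.03), Hilpda and Tmem159, by 1.93. Lipolysis and lipophagy had 4 of 18 higher and 1 lower (median 0.10), among them Pde3b by 1.34, and Lipa at -0.79. Regulators had 3 of 18 higher and 3 lower (median 0.19), with Cebpb higher by 2.27 and Cebpa at -1.91.

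By genotype in VAT, 5 of these lists were counted. Srebf2 itself fell by 3.67 (limma adjusted p = 0.00081), the 1 called of 18 regulators. Of 8 acyl-CoA synthetases, 16 glycerolipid genes, 12 droplet proteins and 18 lipolysis genes, 0 were called, with medians of -0.03, 0.10, 0.01 and 0.03, beside a median of 0.02 over all tested genes. The smallest p among these was that of Mboat1, a glycerolipid gene, at 0.80 (limma adjusted p = 0.27), and in spleen 0 genes of these lists were called.

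**Figure D5:**
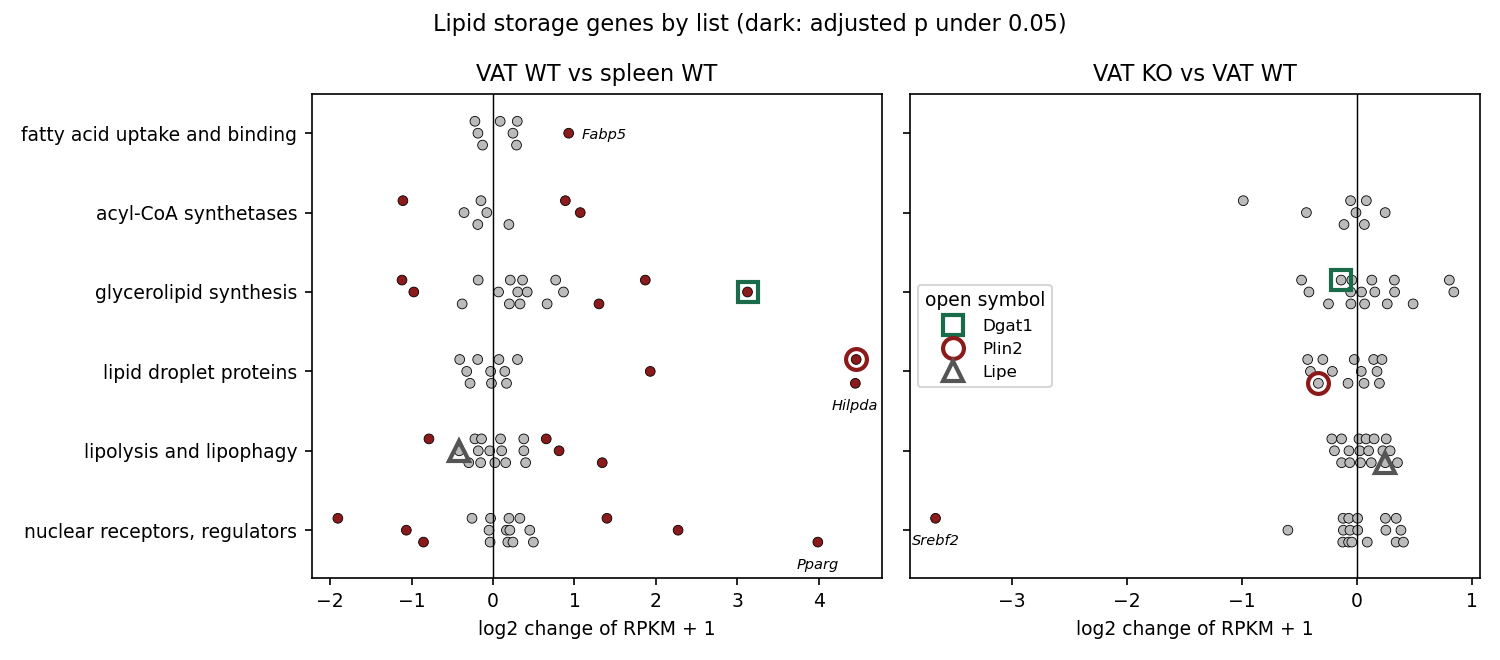
Log2 change of RPKM + 1 for genes of 6 lists (5 in the genotype panel; 1 lipolysis gene and 1 uptake gene are not drawn), for VAT WT against spleen WT and VAT KO against VAT WT, with genes past the threshold in dark and the members in open symbols. Plin2 and Dgat1 stand at the right of the tissue panel beside Hilpda and Pparg, while in the genotype panel the dark point is Srebf2.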

How the data were processed

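Sorted Tregs were profiled by RNA sequencing. Per the labels' protocols, cDNA was made with the SMART-seq v4 kit and libraries with Nextera XT. STAR and the mm10 build are named in the submitters' processing notes. How reads were counted, with which gene models and filters, is not given in the sources used here. Expression is in 1 table of RPKM values that the authors deposited, per the file headers. These are not counts, the worth of 1 read was not recovered, and no counting error can be given. The labels name 11 samples, of which 10 have a matching column, and 1 further column of per-sample values matches no label and was not used. Entrez identifiers were found in a GRCm38.p6 table for 10987 genes, which also served to restore 15 symbols stored as dates.

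Values were analysed as log2(RPKM + 1) in R 4.3.3 with limma 3.58.1 (trend on, robust off), in one fit of 4 group means with no covariate, with 6 residual and 6.44 prior degrees of freedom. Tests were two-sided with Benjamini-Hochberg adjustment over the 10429 tested genes, and called at an adjusted p under 0.05. Errors of levels are SDs. The fit was tested on simulated data. Promoters and overlaps came from RefSeq and GENCODE tables, and the Dgat1 promoter is a missing entry.

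The members, lists, tests and rule for named genes were chosen with earlier results of these data known. The rule named the members, the 3 genes with the smallest p in each list described, and the 3 genes most correlated with each member. Genes named outside it are said to be so, and a few results under the rule are not reported here. Alternatives were pseudocounts of 0.1 and 5, no filter, quantile normalization, median ratio scaling, the 2 compared groups alone, sample weights, a replicate block, and leaving out each library in turn.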

Additional observations from a re-analysis of the deposited data

Results flagged for a closer look

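For Plin2 all 3 VAT KO libraries lay below VAT WT and both spleen KO libraries lay above spleen WT. Neither genotype difference was called in limma, and 88 of 10429 tested genes (0.844%) had the same order. The test of the difference itself gave -0.78 on the log2 scale in limma (SE 0.23, adjusted p = 0.558), so it did not pass after adjustment over all genes. The exact permutation test gave p = 0.0167, the smallest its 120 splits allow, without adjustment for the 3 members tested. The order of the libraries for which Plin2 was flagged gives this p by itself, so it adds no support. The test shuffles genotype within tissue, so it is not a test of the interaction alone. Over the alternatives run, the value ran from -0.99 to -0.57 and the limma adjusted p from 0.0606 to 0.974.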

How the results depend on the processing

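Read depth is unknown, spleen has 2 libraries a genotype, and a group left with 1 library is assumed to vary like the others. The members called were the same number in every alternative run: 0 for each genotype comparison and the interaction, and 2 for each tissue comparison. Counts of called genes moved more. In VAT KO against VAT WT, 44 genes became 20 with a pseudocount of 5, 83 with sample weights and 2 to 59 with a library left out: 2 without VAT WT replicate 1 or VAT KO replicate 3, 27 when VAT WT replicate 3 was dropped, 5 when VAT KO replicate 2 was, and 19 without either spleen KO library. In spleen KO against WT, 0 became 2 with a pseudocount of 0.1 and 0 to 1403 with a library left out, with 5 without spleen WT replicate 2, 1403 without spleen WT replicate 3 and 13 without spleen KO replicate 2. In VAT WT against spleen WT, 2723 became 1757 with the 2 compared groups alone, 1318 with sample weights and 1730 to 3909 with a library left out (1730 without spleen WT replicate 2). In VAT KO against spleen KO, 1522 became 2329 with sample weights and 746 to 2204 with a library left out (786 without spleen KO replicate 2 and 746 without replicate 3). For the interaction, 0 became 2 with a pseudocount of 0.1 and 0 to 521 with a library left out (521 without spleen WT replicate 3 and 2 without spleen KO replicate 2). For genotype averaged over tissue, 8 became 5 with sample weights and 4 to 771 with a library left out (771 without spleen WT replicate 3, 18 without spleen KO replicate 2, 14 without spleen WT replicate 2, and 4 or 5 without VAT WT replicate 2 or VAT KO replicate 2 or 3). The cause was not tested.

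Directions turned only for small member differences that were not called. Dgat1 was 0.024 in VAT KO against WT without VAT WT replicate 3 (range with a library left out -0.266 to 0.024), and 0.022 in spleen with median ratio scaling (-0.097 to 0.089 with a library left out). Its interaction ran from -0.263 to 0.028 and its averaged genotype difference from -0.135 to 0.01. Lipe ran from -0.347 to 0.084 in spleen KO against WT, was 0.027 in VAT KO against spleen KO with median ratio scaling (-0.255 to 0.176 with a library left out), and ran from -0.051 to 0.164 averaged over tissue. Lipe in VAT KO against WT ran from 0.125 to 0.379 and its interaction from 0.161 to 0.592 with a library left out. With pseudocounts of 5 and 0.1 these were 0.109 and 0.342, and 0.171 and 0.518. Plin2 averaged over tissue was -0.017 with a pseudocount of 5 and ran from -0.051 to 0.159 with a library left out.

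Pairing was looked at by correlating libraries after the mean of the group was subtracted from each gene. Same-numbered WT and KO libraries then correlated at -0.15 to 0.05 in VAT, and different-numbered ones at -0.146 to 0.22. Same-numbered VAT and spleen libraries correlated at 0.003 to 0.18. With 2 spleen libraries a group, the subtracted values mirror each other. Pairs with spleen libraries (-0.06 for same-numbered spleen WT and KO) therefore cannot decide, so pairing, left out of the main fit, is open. With a replicate block, Plin2 in VAT KO against WT was -0.34 (limma adjusted p = 0.837) and 32 genes were called there.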
